A study of Mus musculus with 32 samples.

Results

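The genes described here are the heat shock chaperones of the cytosol and mitochondria and their helpers: the Hsp70 and Hsp110, Hsp90 and small heat shock proteins, the CCT chaperonin, the J proteins, the BAG proteins and the heat shock transcription factors. They were chosen by gene symbol among protein-coding genes (symbols that begin with Dnaj, Hspa, Hspb, Hspd, Hspe, Hsph or Hsp90, or with Bag, Hsf or Cct and a number), without 6 chaperones of the endoplasmic reticulum. The rule gave 88 genes of the 51510 in the table, and no measured value entered it. The names are wider than the label. Hsf2bp, Hspbp1 and Hspbap1 enter through their prefixes, and Dnajb12, Dnajb14, Dnajc1, Dnajc25 and Hspa13 are known from the endoplasmic reticulum rather than the cytosol. Tcp1, the first CCT subunit, does not carry the prefix, and Cct6a is not typed as protein-coding in the annotation used, so both stand outside the 88.

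The libraries come from total RNA of male C57BL/6J mice, taken from brown adipose tissue (BAT), from liver, and from heart and from a muscle the labels do not name. In each tissue, 4 libraries are labelled Mut, from a Smim30 knockout line, and 4 are labelled WT, which gives 32 libraries in 8 groups. The allele, the age of the mice and whether 1 animal gave several tissues are not stated. The labels speak of individual mice for each tissue, so the spread between libraries includes that between animals.

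Chaperones bind unfolded proteins and release them in cycles driven by ATP. Hsp70 proteins are loaded with their clients by J proteins, and BAG and Hsp110 proteins exchange their nucleotide; Hsp90 receives clients for late folding steps, the ring-shaped CCT folds actin and tubulin, and small heat shock proteins hold unfolded clients without ATP. In mitochondria, Hspa9 pulls imported proteins through the inner membrane with the help of J proteins, and Hspd1 with its lid Hspe1 folds them. Hsf1, the main heat shock factor, binds inverted repeats of a 3-base unit in the promoters of heat-inducible genes.

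Promoter windows were matched in RefSeq (GRCm38.p6, 250 bases before to 50 after each start) for 70 of the 88 genes. The repeat was searched as GAANNTTC or TTCNNGAA, each of which reads the same on both strands, and as the 3-unit forms GAANNTTCNNGAA and TTCNNGAANNTTC, which contain an inverted pair by construction. The 150 bases before the start are shown for Hspe1, which shares its window with Hspd1, for Dnajb6, for the neighbouring copies Hspa1a and Hspa1b, and for Hspb1, because these genes return below. Capitals mark the units of an inverted pair.
Hspe1, chr1:55087998-55088147, plus strand: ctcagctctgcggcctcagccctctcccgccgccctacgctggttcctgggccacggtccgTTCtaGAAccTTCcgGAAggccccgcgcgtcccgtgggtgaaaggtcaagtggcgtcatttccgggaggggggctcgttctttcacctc
Dnajb6, chr5:29735748-29735897, plus strand: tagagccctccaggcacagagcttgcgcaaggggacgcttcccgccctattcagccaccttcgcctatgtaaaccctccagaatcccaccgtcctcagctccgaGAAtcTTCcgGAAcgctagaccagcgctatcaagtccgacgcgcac
Hspa1a, chr17:34972157-34972306, minus strand: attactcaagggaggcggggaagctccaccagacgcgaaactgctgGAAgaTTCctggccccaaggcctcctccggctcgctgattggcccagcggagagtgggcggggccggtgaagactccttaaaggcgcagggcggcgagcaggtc
Hspa1b, chr17:34959239-34959388, minus strand: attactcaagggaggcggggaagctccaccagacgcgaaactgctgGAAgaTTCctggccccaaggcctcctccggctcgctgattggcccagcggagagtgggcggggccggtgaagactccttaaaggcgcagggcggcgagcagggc
Hspb1, chr5:135887769-135887918, plus strand: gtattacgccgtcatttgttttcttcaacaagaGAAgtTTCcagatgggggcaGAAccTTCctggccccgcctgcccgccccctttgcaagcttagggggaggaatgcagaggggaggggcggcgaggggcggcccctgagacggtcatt

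An inverted pair stood in a window of 20 of the 70 genes (28.6%), against 17% of all 27025 genes with a window. The 3-unit form stood in a window of 4 of the 70 (5.71%), against 0.662% of all genes. The 4 genes were Hspd1, Hspe1, Dnajb6 and Hsph1, in which it lay after the start. Hspd1 and Hspe1 are read in opposite directions from starts 216 bases apart, so the same letters served both. The windows of Hspa1a and Hspa1b differed at 4 of 300 positions. A match of letters is a description of the window and not a measured binding site.

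Values are TPM, abundances per transcript length scaled to a fixed sum per library, and transcripts were summed per gene. These units hold no read totals, and sequencing depth is unknown. Ucp1, Cidea, 4 heart, 4 liver and 5 skeletal muscle markers had their highest means in the tissue of their label. Elovl3, also on the brown fat list, did not, at 17.1 ± 8.18 TPM in WT BAT and 37 ± 18.8 TPM in WT liver. Summed by list with Elovl3, the markers also stood in each other WT tissue, at 0.961% to 2.67% of their own tissue's level on average. Part of this can be a tissue's own expression, as Ckm averaged 1008 ± 58.9 TPM in WT heart and 207 ± 7.53 TPM in WT liver. A gene specific to 1 tissue can thus stand at up to such a share elsewhere. Mitochondrially encoded RNA took 10.1% to 14.6% of the TPM in liver libraries, 22.8% to 30.4% in muscle, 31.7% to 38.3% in BAT and 40.7% to 54.5% in heart, with the highest share in Mut heart 2. Smim30 RNA, annotated as 2610001J05Rik, did not separate the genotypes in every tissue. It stood at 28.6, 27.3, 29.3 and 33 TPM in BAT libraries labelled Mut, against 23.5, 26.8, 32 and 32.3 TPM in those labelled WT, and at 17.3 to 25.6 TPM in Mut against 18.6 to 26.4 TPM in WT liver. In heart it was 17.8 to 27.4 TPM in Mut, against 32.7 to 37.6 TPM in WT, and in muscle 24.3 to 27.3 TPM against 32.9 to 35.7 TPM, without overlap. Smim30 passed limma's test in no tissue (adjusted p = 0.224 in muscle and 0.32 in heart). Whether the knockout allele should lower this RNA is not stated, so Mut and WT below name the labels of libraries, in BAT and liver above all.

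The chaperone genes covered a wide range of levels, and together they took a similar share of the deposited TPM in every group. Their summed TPM was 4368 ± 439 in Mut and 4428 ± 832 in WT BAT, 4285 ± 399 in Mut and 4368 ± 213 in WT heart, 3860 ± 191 in Mut and 3642 ± 131 in WT liver, and 4770 ± 194 in Mut and 4668 ± 134 in WT muscle (SD, n = 4). These sums correspond to 0.364% to 0.477% of all TPM. That total includes mitochondrial RNA, which took unequal shares of the tissues, so the likeness between tissues holds for this scaling alone. Means reached 1 TPM in 76 and 74 genes in Mut and WT BAT, 72 and 72 in heart, 70 and 69 in liver, and 75 and 75 in muscle, and 67 genes reached it in all 8 groups. In all 8 groups 11 genes stayed under 1 TPM: Cct6b, Cct8l1, Dnajb7, Dnajb8, Dnajc5b, Dnajc5g, Dnajc6, Hsf2bp, Hsf3, Hsf5 and Hspb9. Dnajc5g was listed at 0 in every library.

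**Figure D1:**
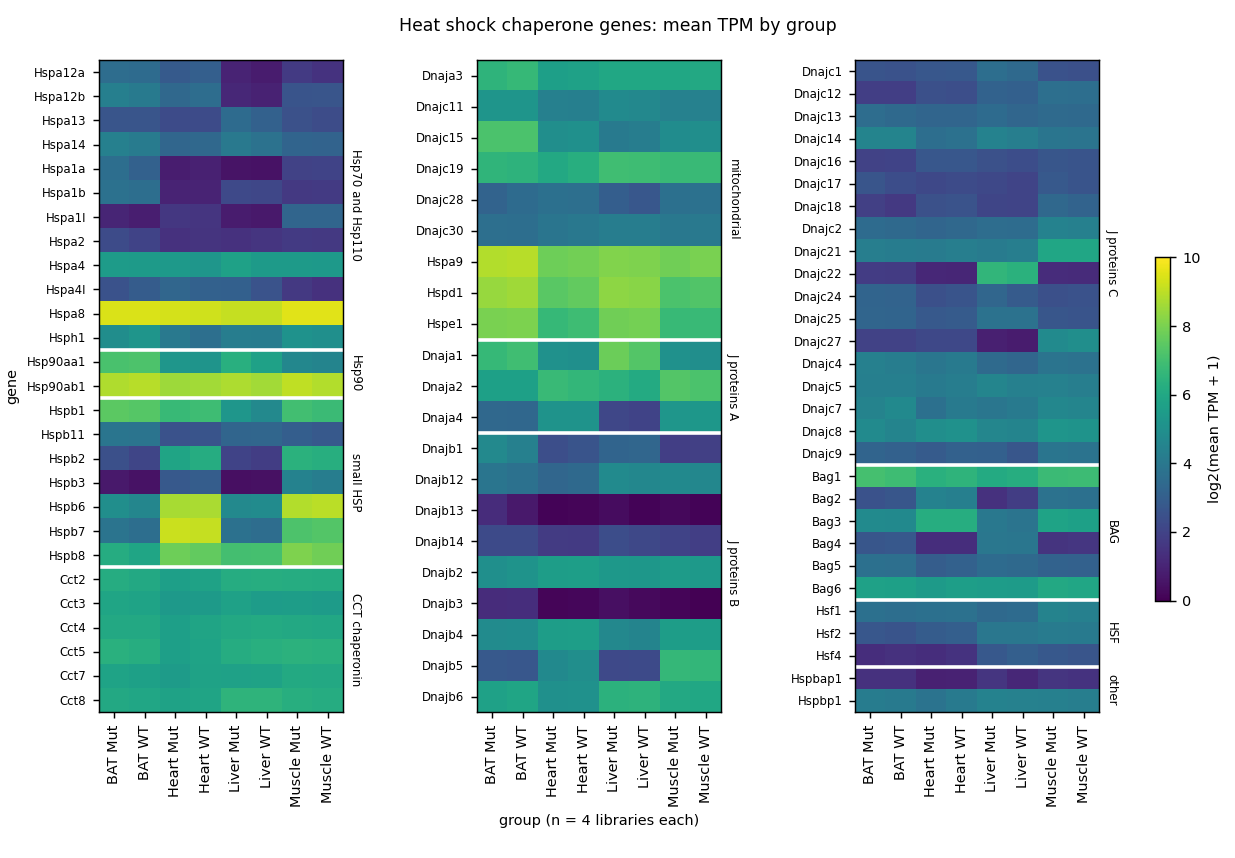
Mean level of the 77 chaperone genes that reached a mean of 1 TPM in at least 1 group, as colour on a log2(mean TPM + 1) scale, with genes in rows by class and the 8 groups (n = 4 libraries each) in columns. Hspa8 and Hsp90ab1 were high throughout, Hspb6 and Hspb7 stood out in heart and muscle, and Dnajc22 in liver.

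The first question was how the chaperones are distributed over the 4 tissues in WT mice, tested with limma on log2(TPM + 1) over 12710 genes, of which 75 were chaperone genes. A call is a Benjamini-Hochberg adjusted p under 0.05 over all genes tested. The comparisons share the WT libraries of a tissue and are not independent. In a whole tissue, fewer cells of a type and less RNA per cell cannot be told apart. Most genes of any kind differed between tissues, so the counts are read against that share. For heart minus muscle 40 of 75 were called (53.3%, against 64.8% of all genes), for BAT minus muscle 55 (73.3% against 73.6%) and for BAT minus heart 54 (72% against 63.2%). For liver minus BAT 51 were called (68% against 72.4%), for liver minus muscle 57 (76% against 80.1%) and for liver minus heart 56 (74.7% against 79.2%). The chaperone shares thus lay near those of all genes, with heart minus muscle the furthest below.

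The direction of these calls leaned on the scaling, since mitochondrial RNA and a few abundant genes take unequal shares of the tissues. In heart minus muscle 10 were higher and 30 lower, but 32 higher and 16 lower once mitochondrial and the 10 most abundant genes were taken out of the sum. BAT minus muscle gave 24 higher and 31 lower, and 32 and 25 rescaled. BAT minus heart gave 35 higher and 19 lower, 26 and 26 rescaled, and 25 and 27 with median-ratio scaling. Liver minus BAT gave 21 higher and 30 lower, and 8 and 58 rescaled, liver minus muscle 21 and 36, and 11 and 53 rescaled. Liver minus heart gave 30 higher and 26 lower, 6 and 55 rescaled, and 20 and 32 with median-ratio scaling. Rescaling moved the median of all genes too, to 0.28 in heart minus muscle (log2, from -0.07 as deposited), to 0.30 in BAT minus muscle (0.08), to -0.57 in liver minus BAT (0.01), to -0.29 in liver minus muscle (0.07), to -0.55 in liver minus heart (0.18) and to 0.00 in BAT minus heart (0.13). Median-ratio scaling brought these medians to between -0.06 and -0.01. The genes named below are therefore those that stood higher in 1 tissue than in each of the others, and where a scaling ended or turned such a call it is said.

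BAT held 13 such chaperone genes (17.3%, against 14.1% of all genes), and 5 of them belong to the mitochondrial group. Dnajc15, an inner membrane J protein at the import channel, had the largest gap. Its level was 139, 150, 150 and 137 TPM in the WT BAT libraries, against 34.9, 30.8, 30 and 28.4 TPM in WT heart, with 29.5 ± 2.84 TPM in WT muscle and 17.7 ± 1.58 TPM in WT liver. No library of another tissue came near, and the smallest difference was 2.18 on the log2 scale (adjusted p = 3.11e-13). Its near relative Dnajc19, of the same import motor, did not follow it and averaged 87.5 ± 6.12 TPM in WT BAT, 119 ± 10.3 TPM in WT liver and 108 ± 9.57 TPM in WT muscle.

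The mitochondrial Hsp70, Hspa9, was at 436, 451, 533 and 507 TPM in WT BAT, against 256, 279, 269 and 270 TPM in WT liver, and at 252 ± 11.2 TPM in WT muscle and 233 ± 6.45 TPM in WT heart. All 4 BAT libraries were above all others (smallest log2 difference 0.84, adjusted p = 5.00e-09). Dnaja3, its J protein of the matrix, averaged 102 ± 2.46 TPM in WT BAT and 65.1 ± 1.96 TPM in WT muscle (0.64, adjusted p = 2.26e-07), and Dnajc11, a J protein of the outer membrane, 36 ± 3.67 TPM in WT BAT and 24.5 ± 0.722 TPM in WT liver (0.53, adjusted p = 1.38e-05). Hspd1 averaged 380 ± 43.9 TPM in WT BAT and 300 ± 22.8 TPM in WT liver (0.33, adjusted p = 0.00128), with 192 ± 5.33 TPM in WT heart and 153 ± 7.65 TPM in WT muscle. The difference of Hspd1 was 0.15 and not called among the Mut libraries. Hspe1 averaged 258 ± 11.4 TPM in WT BAT, 238 ± 21 TPM in WT liver, 119 ± 2.9 TPM in WT heart and 109 ± 7.3 TPM in WT muscle. Hspd1 and Hspe1, which are read from the shared window above, were thus both high in BAT and liver and lower in the striated muscles, and the ratio of Hspd1 to Hspe1 TPM ran only from 1.26 ± 0.107 in WT liver to 1.61 ± 0.0793 in WT heart.

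In WT BAT minus WT heart, 5072 of all 12710 genes were called higher and 2955 lower. In the mitochondrial group as a whole, 6 of 9 genes were called higher and 1 lower there, with a median difference of 0.96, against 0.13 for all genes. With either other scaling 6 were called higher and 2 lower. Among 7 mitochondrial partners outside the 88, including Trap1, the mitochondrial Hsp90, 6 were called higher and none lower in the same comparison, with a median of 0.91. Trap1 itself averaged 137 ± 6.43 TPM in WT BAT and 60.3 ± 7.57 TPM in WT heart.

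The other 8 genes highest in BAT were Hsp90aa1, Dnajb1 and Hspb1, which are on the heat-inducible list, and Hspb11, Hspa12a, Hspa12b, Hspa14 and Dnajc24, which are not. Hsp90aa1, the inducible Hsp90, averaged 148 ± 64.4 TPM in WT BAT, 51.7 ± 5.1 TPM in WT liver, 35.3 ± 4.83 TPM in WT heart and 22 ± 0.488 TPM in WT muscle (smallest log2 difference 1.41, adjusted p = 7.84e-06). Dnajb1, the J protein that stress induces with it, averaged 19.3 ± 12.6 TPM in WT BAT and 8.91 ± 0.918 TPM in WT liver (0.81, adjusted p = 0.0248). The call on Dnajb1 was lost without WT BAT 3 (0.62), WT BAT 4 (0.46) or WT liver 2 (0.74), with array weights (0.47) and with no filter on low values. Hsp90ab1, the constitutive Hsp90, was more even, at 485 ± 62.1 TPM in WT BAT, 388 ± 22.5 TPM in WT heart, 386 ± 31.6 TPM in WT liver and 461 ± 23.2 TPM in WT muscle. Hspb1 averaged 164 ± 51.2 TPM in WT BAT and 119 ± 6 TPM in WT heart, and Hspa12a 10.2 ± 2.9 TPM in WT BAT and 7.11 ± 0.444 TPM in WT heart, and both calls were lost under both other scalings. Hspb11 averaged 13.4 ± 3.69 TPM in WT BAT and 8.86 ± 1.12 TPM in WT liver, and Hspa14 17 ± 2.49 TPM in WT BAT and 12.5 ± 1.59 TPM in WT liver. Hspa12b averaged 15.8 ± 3.39 TPM in WT BAT and 10.9 ± 0.745 TPM in WT heart. Dnajc24 averaged 8.19 ± 0.855 TPM in WT BAT and 6.29 ± 0.482 TPM in WT liver, and was not called among the Mut libraries (-0.08).

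Heart held only 3 such genes (4%, against 7.62% of all genes), Hspb7, Bag3 and Bag2. Hspb7, the cardiovascular small heat shock protein, was at 518, 598, 545 and 577 TPM in WT heart, against 158, 210, 138 and 132 TPM in WT muscle, and at 11.4 ± 1.16 TPM in WT BAT and 11 ± 0.451 TPM in WT liver. Every heart library was above every muscle library, and the smallest log2 difference was 1.83 (adjusted p = 3.19e-10). Bag3, which joins Hsp70 to Hspb8 in the turnover of damaged muscle proteins, averaged 73.3 ± 6.62 TPM in WT heart, 51 ± 5.67 TPM in WT muscle, 26 ± 9.17 TPM in WT BAT and 13.5 ± 0.452 TPM in WT liver (0.52, adjusted p = 0.015). Bag2, an inhibitor of the Hsp70-bound ubiquitin ligase Stub1, averaged 18.7 ± 1.12 TPM in WT heart and 11.8 ± 1.21 TPM in WT muscle (0.63, adjusted p = 2.09e-05). With the sum rescaled, 11 genes were called highest in heart, these 3 among them. The share of all genes highest in heart with that scaling is not given here. Rescaling raised heart among genes at large too. In heart minus muscle 3675 of 12710 genes were called higher as deposited, and 6952 of 14162 rescaled.

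Genes with an Hspb symbol were grouped as small heat shock proteins by name alone. Most of them were higher in the striated muscles than in the other tissues, with Hspb1 and Hspb11 as exceptions. Their summed level was 1374 ± 49.8 TPM in WT heart and 1096 ± 108 TPM in WT muscle, and 273 ± 64 TPM in WT BAT and 206 ± 28.8 TPM in WT liver. In WT liver minus WT heart, 4136 of all 12710 genes were called lower and 5936 higher. Of the 7 Hspb genes tested, 6 were called lower and 1 higher there, with a median difference of -2.48, against 0.18 for all genes. The 6 lower calls were made with each scaling, and the higher one, Hspb11, was lost in the rescaled sum. In WT BAT minus WT heart, 2955 of all genes were called lower and 5072 higher, and in WT BAT minus WT muscle 4151 and 5200. Of the 7 Hspb genes, 5 were called lower and 2 higher in both, with medians of -2.43 and -3.68, against 0.13 and 0.08 for all genes. The 2 that were higher in BAT were Hspb1, at 164 ± 51.2 TPM in WT BAT, 119 ± 6 TPM in WT heart, 111 ± 6.23 TPM in WT muscle and 24.9 ± 2.15 TPM in WT liver, and Hspb11, at 13.4 ± 3.69 TPM in WT BAT, 5.03 ± 0.946 TPM in WT heart and 5.95 ± 0.78 TPM in WT muscle. The higher call on Hspb1 against heart was lost under both other scalings. Hspb6, a partner of myosin and actin filaments, was at 500 ± 70.8 TPM in WT muscle and 419 ± 23.1 TPM in WT heart, and the order of the 2 was lost under both other scalings. Hspb2 and Hspb3, which form a complex of muscle, averaged 77 ± 2.67 and 17.7 ± 0.998 TPM in WT muscle, 71.5 ± 4.91 and 6.66 ± 0.854 TPM in WT heart, and stayed at or under 3.25 ± 0.394 TPM in WT BAT and WT liver. Hspb8 was at 224 ± 19.5 TPM in WT muscle, 193 ± 2.27 TPM in WT heart, 131 ± 28.4 TPM in WT liver and 57.9 ± 10.6 TPM in WT BAT. Cryab, a related crystallin outside the 88, averaged 1111 ± 116 TPM in WT heart and 605 ± 150 TPM in WT muscle.

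**Figure D2:**
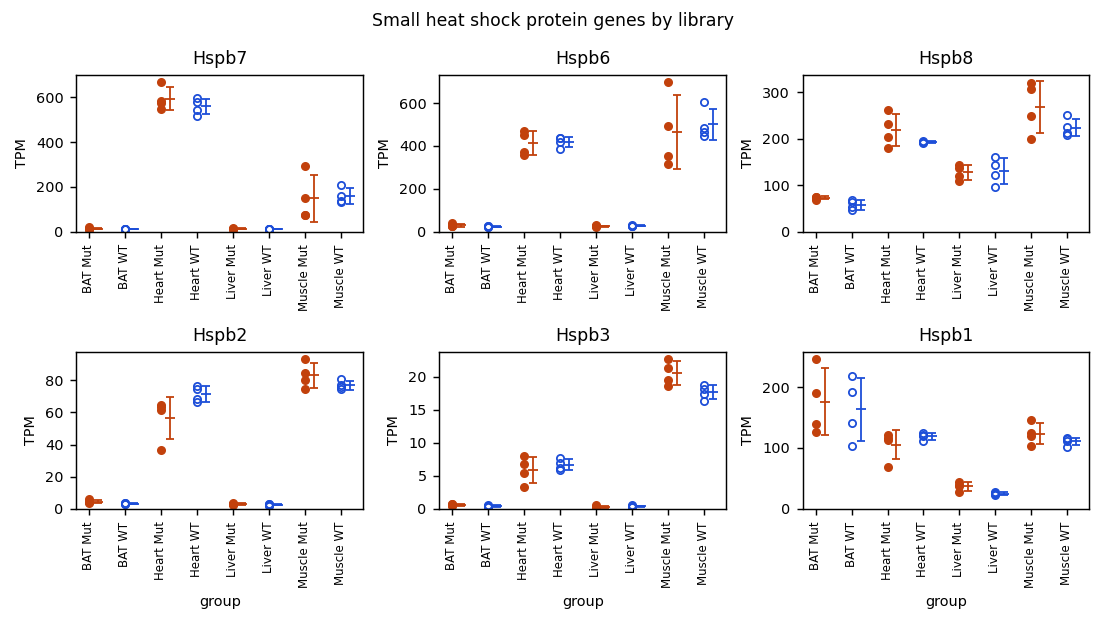
TPM of 6 small heat shock protein genes in each library (points) with the mean and SD of each group beside them, Mut filled and WT open. Hspb7 was highest in heart, Hspb3 in muscle, and Hspb1 in BAT with the deposited scaling alone, and the 4 Mut muscle libraries were spread from 72.1 to 295 TPM for Hspb7.

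Muscle held 14 such genes (18.7%, against 17.5% of all genes), of which 6 were J proteins of class C. Dnajc27, a small GTPase with a J domain, was at 29.2, 31, 29.5 and 28.8 TPM in WT muscle, against 3.08, 3.31, 3.42 and 4.38 TPM in WT heart (smallest log2 difference 2.76, adjusted p = 7.95e-14). Hspa1l, a gene related to Hspa1a and Hspa1b that is best known from testis, averaged 8.56 ± 0.933 TPM in WT muscle and 1.94 ± 0.281 TPM in WT heart (1.70, adjusted p = 5.20e-10). Dnajb5 averaged 96.4 ± 16.9 TPM in WT muscle and 29.4 ± 4.07 TPM in WT heart (1.67, adjusted p = 1.51e-08). Each of these was at least 3 times as high in muscle as in the next tissue by mean TPM. Dnajc21 and Dnajc2, J proteins that work at the ribosome, averaged 60.1 ± 2.83 and 19.3 ± 1.41 TPM in WT muscle and 18.4 ± 0.799 and 10.7 ± 0.989 TPM in WT liver (1.65 and 0.79). Hsf1 averaged 19.4 ± 1.44 TPM in WT muscle and 12.1 ± 1.41 TPM in WT heart (0.64, adjusted p = 1.61e-05). All 3 heat shock factors tested were called higher in muscle than in heart with each scaling, as were 4564 of all 12710 genes with the deposited scaling. Dnaja2, Cct7, Hspb6 and Bag6 lost the call in the rescaled sum, and 10 of the 14 kept it.

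Liver held 8 such genes (10.7%, against 27% of all genes), and only Dnajc22 and Bag4 kept the call when the sum was rescaled. Dnajc22, a membrane J protein, was at 78.1, 80.9, 79.6 and 91 TPM in WT liver, against 1.74, 2.8, 2.73 and 2.17 TPM in WT BAT (smallest log2 difference 4.64, adjusted p = 2.18e-16). Its mean TPM in liver was 34.9 times that in BAT, while liver markers were found in WT BAT at 0.961% of their liver level. Bag4, an inhibitor of death receptor signalling, averaged 14.2 ± 0.641 TPM in WT liver and 5.82 ± 0.334 TPM in WT BAT (1.15, adjusted p = 8.59e-11). Of the remaining 6, Dnajc1, Dnajc25 and Hspa13 are among the members known from the endoplasmic reticulum, at 9.67 ± 1.25, 12.6 ± 2.2 and 7.68 ± 1.69 TPM in WT liver. Their smallest differences of 0.67, 0.53 and 0.48, and that of Dnajb6 (0.49), turned to -0.07, -0.11, -0.12 and -0.13 in the rescaled sum. Dnaja1, a main J partner of Hspa8, was at 175, 167, 144 and 156 TPM in WT liver and 72.2, 55.8, 149 and 203 TPM in WT BAT, so that these tissues overlapped, with 30.4 ± 3.77 TPM in WT heart and 29.5 ± 1.9 TPM in WT muscle.

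The CCT subunits, which assemble into 1 ring, kept to a narrow range. The 6 expressed members averaged between 43.1 ± 2.37 TPM (Cct3, heart) and 90.9 ± 4.07 TPM (Cct8, liver) over the WT tissues. Cct3 was 55.3 ± 11.7 TPM in WT BAT and 43.5 ± 2.41 TPM in WT muscle. Cct5 averaged 74.8 ± 6.8 TPM in WT BAT, 55.3 ± 3.15 TPM in WT heart, 77.9 ± 10.5 TPM in WT liver and 81.1 ± 1.58 TPM in WT muscle, and Cct2 and Cct4 lay between 52.8 ± 2.52 and 73.2 ± 5.09 TPM. Tcp1 was above them at 111 ± 15.9 TPM in WT BAT, 104 ± 13.3 TPM in WT heart, 139 ± 13.4 TPM in WT liver and 179 ± 10.9 TPM in WT muscle.

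Among other abundant members, Bag1, Hspa4 and Hspa8 had flatter profiles by mean TPM. Bag1, a nucleotide exchange factor of Hsp70, averaged 118 ± 12.2 TPM in WT BAT, 89.7 ± 3.38 TPM in WT heart, 73.9 ± 8.33 TPM in WT liver and 115 ± 4.03 TPM in WT muscle. Hspa4, the main Hsp110 gene, stayed between 37.1 ± 1.52 TPM in WT heart and 42.6 ± 11 TPM in WT BAT. Hspa8 averaged 699 ± 320 TPM in WT BAT, 621 ± 83.6 TPM in WT heart, 557 ± 85.3 TPM in WT liver and 754 ± 39.8 TPM in WT muscle. Its WT BAT libraries ran from 381 to 1010 TPM. Among J proteins, Dnajb2 averaged 33.8 ± 2.14 TPM in WT BAT and 47.9 ± 5.22 TPM in WT heart, and Dnajb4 averaged 21.7 ± 1.36 TPM in WT liver and 47.8 ± 3.51 TPM in WT heart. The heat shock factors Hsf2 and Hsf4 were low in WT BAT, at 5.08 ± 0.433 and 1.7 ± 0.399 TPM. They averaged 15.8 ± 1.45 and 5.15 ± 0.32 TPM in WT muscle, and 14.7 ± 2.9 and 7.2 ± 1.42 TPM in WT liver. Hsf4 was among the genes called highest in liver, and its call was lost under both other scalings and among the Mut libraries.

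The same orders held largely in the 16 Mut libraries: 10 of the 13 BAT genes, 3 of 3 heart genes, 7 of 8 liver genes and 13 of 14 muscle genes were also called there. The Mut means of the leading genes were 144 ± 12.5 TPM for Dnajc15 in BAT, 594 ± 52 TPM for Hspb7 in heart, 94.7 ± 8.93 TPM for Dnajc22 in liver and 26.9 ± 2.26 TPM for Dnajc27 in muscle.

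Dnajb6, a J protein that keeps aggregating proteins soluble, differed between tissues in its transcripts as well as its level. Of 12 transcripts in the table, a longer one (10 exons, 1095 coding bases) and a shorter one (8 exons, 726 coding bases) carried most of the TPM. They lie at chr5:29735688-29786478 and chr5:29735940-29767103 (GENCODE M21, GRCm38, plus strand), and the deposited identifiers carry later version numbers. The longer transcript made up 68.8% ± 1.53 of Dnajb6 TPM in WT muscle, 51.4% ± 2.23 in WT heart, 21.7% ± 1.31 in WT BAT and 13.8% ± 1.56 in WT liver (SD, n = 4). No 2 of the WT tissues overlapped. Each of the 6 differences between WT tissues had p = 0.0286 in a two-sided exact permutation test, the smallest that 4 against 4 can give, and 0.0477 adjusted over 10 comparisons. The other 4 set Mut against WT within a tissue, with differences of 4.2 points in BAT, 0.3 in heart, -1.1 in liver and -0.2 in muscle and exact p-values between 0.0857 and 0.971. These tests were not among those planned and were run for Dnajb6 alone. The adjustment does not cover that choice of gene, so the shares are given as a description. By gene level Dnajb6 was at 61 ± 1.61 TPM in WT muscle and 58.4 ± 1.12 TPM in WT BAT. Salmon divides reads that fit several transcripts by estimation, and that error is not given in the table.

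**Figure D3:**
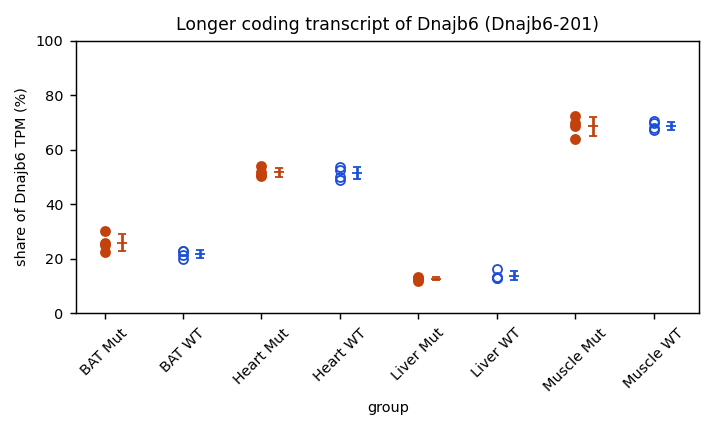
Share of Dnajb6 TPM assigned to the longer coding transcript in each library (points, Mut filled and WT open) with mean and SD beside them. WT muscle averaged 68.8% and WT liver 13.8%, and Mut and WT differed by at most 4.2 points within a tissue.

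The second question was whether the chaperones differed between Mut and WT libraries of a tissue. In BAT, heart and muscle no chaperone gene was called. In BAT 0 of 74 passed (0% of all 12150 genes), in heart 0 of 72 (0.15% of all genes) and in muscle 0 of 75 (0.0085%), by limma with Benjamini-Hochberg adjustment. Unadjusted p-values were under 0.05 for 6 genes in BAT (8.11%, against 19.5% of all genes), 1 in heart (1.39% against 11.6%) and 1 in muscle (1.33% against 7.76%), in each case a smaller share than among all genes. With array weights in limma, 3 genes were called in BAT, and 1 fit over all 32 libraries called 2 there. The share of all genes called in these fits is not given here, so the counts are not read as a result about the chaperones.

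In liver 4 chaperone genes were called, and all 4 were higher in Mut: Dnaja1, Hsp90aa1, Hspa4l and Dnajc24. They make up 5.71% of the 70 tested, while 4.16% of all 11994 genes were called and 3.78% were called higher, so the share is near that of genes at large. Dnaja1 was at 231, 208, 224 and 204 TPM in Mut liver, against 175, 167, 144 and 156 TPM in WT liver (log2 difference 0.43, SE 0.09, adjusted p = 0.0321). Hsp90aa1 was at 96.4, 74.4, 82.4 and 63.5 TPM in Mut liver, against 47.7, 49, 51.2 and 59.1 TPM in WT liver (0.59, SE 0.13, adjusted p = 0.0382). For both genes every Mut library lay above every WT library.

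Hspa4l, an Hsp110 protein that exchanges the nucleotide of Hsp70, was at 9.08, 7, 6.68 and 6.93 TPM in Mut liver, against 5.25, 4.45, 4.48 and 5.43 TPM in WT liver (0.51, SE 0.11, adjusted p = 0.0385). Dnajc24, a J protein of diphthamide synthesis on translation elongation factor 2, was at 10.1, 8.75, 7.68 and 8.45 TPM in Mut liver, against 6.61, 6.42, 6.55 and 5.58 TPM in WT liver (0.42, SE 0.10, adjusted p = 0.046). These groups did not overlap either, with Mut 1 the highest library for all 4 genes. The groups did not overlap for 11 of the 70 genes in liver (15.7%, against 16.4% of all genes), and unadjusted p-values were under 0.05 for 14 (20%, against 25.9%).

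The 4 calls are close to the threshold. With median-ratio scaling, which moves the median of all genes from 0.10 to 0.00, none was called (adjusted p between 0.0669 and 0.113). None was called with no filter on low values, 2 were called in the rescaled sum, and 0 to 3 without 1 library. Leaving out Mut 1, 2 or 3 or WT 3 or 4 each ended all 4 calls, and leaving out WT 1 or 2 left 1. Hspa4l and Dnajc24 lost the call whichever liver library was left out. The sign of the 4 differences was positive in each of these fits.

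Next in order of p in liver were Dnajc9, a histone-binding J protein, at 7.43 ± 0.455 TPM in Mut and 5.47 ± 0.74 TPM in WT (0.39, adjusted p = 0.0567), and Hspb1, at 37 ± 7.43 TPM in Mut and 24.9 ± 2.15 TPM in WT (0.53, adjusted p = 0.0643). Neither passed the test. Hspa8, the constitutive Hsp70, was at 557 ± 95.1 TPM in Mut and 557 ± 85.3 TPM in WT liver, and Hspa1b at 3.61 ± 0.652 TPM in Mut and 3.42 ± 0.965 TPM in WT liver. Of the 11 heat-inducible genes 10 were tested in liver, 2 were called, 7 had a positive and 3 a negative difference, and their median was 0.08, against 0.06 for all members and 0.10 for all genes.

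Among pathway genes outside the 88, 1 of 18 co-chaperones of Hsp70 and Hsp90 was called in liver. This was St13, which binds Hsp70, at 124, 109, 106 and 121 TPM in Mut, against 84.4, 90.8, 92.7 and 92.1 TPM in WT (0.34, SE 0.08, adjusted p = 0.0441). None of 9 prefoldin and CCT genes, 7 mitochondrial partners or 6 chaperones of the endoplasmic reticulum was called there, and no gene of these lists was called in the other tissues. Trap1 had the smallest p of the mitochondrial list (110 ± 6.27 TPM in Mut and 94.2 ± 6.19 TPM in WT liver, adjusted p = 0.122).

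Leukocyte markers moved with the liver groups. The mean of 5 of 5 (Ptprc, Cd68, Adgre1, Csf1r and Cd3e) was higher in Mut, and their sum was 27, 19.8, 22.1 and 62 TPM in Mut liver and 7.95, 11.1, 11.1 and 26.1 TPM in WT liver, with none at 0 in all libraries of a group. The sum of 5 red blood cell markers was 1067 to 4286 TPM in Mut and 1226 to 1568 TPM in WT, with 5 of 5 higher in Mut by mean. Mut 4, with the highest sums, was the lowest Mut library for Dnaja1 and Hsp90aa1, but not for Hspa4l or Dnajc24. The part of these cells in the liver result was not tested.

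**Figure D4:**
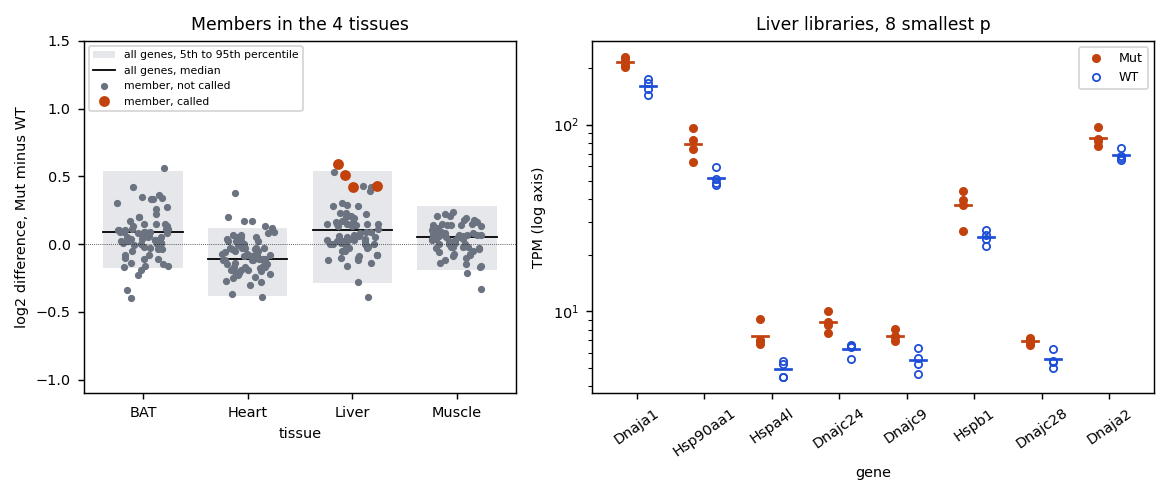
Left, log2 difference (Mut minus WT, on log2(TPM + 1)) of each tested chaperone gene in the 4 tissues, over the 5th to 95th percentile and median of all genes tested; the 4 called genes, all in liver, lie between 0.42 and 0.59. Right, TPM in single liver libraries (points, log axis, bars at the mean) of the 8 chaperone genes with the smallest p, Mut filled and WT open, with no overlap for Dnaja1, Hsp90aa1, Hspa4l and Dnajc24.

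By class, the 4 liver calls fell on 1 of 10 Hsp70 and Hsp110 genes, 1 of 2 Hsp90 genes, 1 of 4 J proteins of class A and 1 of 22 of class C. Class medians in liver ranged from -0.09 (3 heat shock factors) to 0.38 (2 Hsp90 genes). In heart all 7 tested genes of the CCT list (6 members and Cct6a) had a negative difference (median -0.12, against -0.11 for all genes), and in muscle all 9 mitochondrial genes had a negative one (median -0.05, against 0.05 for all genes), with adjusted p of at least 0.713.

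The genes with the smallest p in BAT were Dnajc8, Dnajc28, Hspb8, Hspb2, Dnajc7 and Dnaja3, with log2 differences of 0.30, -0.34, 0.34, 0.36, -0.23 and -0.17 and adjusted p of 0.123 to 0.199. Dnajc8, a splicing-associated J protein, was at 26.4, 26.2, 27.3 and 27.9 TPM in Mut BAT, against 19.7, 21.2, 23.8 and 22 TPM in WT BAT. These groups did not overlap, as was so for 6 of the 74 genes (8.11%, against 9.41% of all genes). The same held for 5 of 72 genes in heart (6.94% against 7.53%) and for 1 of 75 in muscle (1.33% against 4.49%). All 6 small heat shock proteins tested in BAT had a positive difference, none of them called (median 0.26, against 0.09 for all genes), and skeletal muscle markers summed to 1580, 2466, 1672 and 949 TPM in Mut BAT, against 1051, 1097, 1142 and 1145 TPM in WT BAT (5 of 5 higher in Mut by mean, none at 0). Their part in these values was not tested. In heart they were Cct7, Hspb2, Hsph1, Dnajc9, Dnaja2 and Hspbp1, with differences of -0.28, -0.37, 0.38, -0.23, 0.20 and -0.27 and adjusted p of 0.425 to 0.453. Mut heart 2, the library with the most mitochondrial RNA, was the lowest of its group for Cct7 (33.2 TPM) and Hspb2 (36.6 TPM). Without it the differences were -0.16 for Cct7, -0.17 for Hspb2, -0.13 for Dnajc9 and -0.13 for Hspbp1. Hearts also differed in atrial markers, whose sum was 22.6 to 88.8 TPM in Mut and 330 to 3327 TPM in WT (0 of 5 higher in Mut); the part of this in the heart values was not tested. In muscle they were Hspb3, Hspa12a, Hsp90ab1, Hspa13, Hspa4l and Hsph1, with differences of 0.21, 0.21, 0.19, 0.16, 0.22 and 0.14 and adjusted p of 0.593 to 0.684. Without Mut muscle 1 the difference of Hspa4l was 0.13, and without WT muscle 4 that of Hsph1 was 0.09.

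A test of whether the genotype difference itself varied between tissues (limma, tissue by genotype interaction over 10109 genes) called 3 of 68 chaperone genes (4.41%, against 5.87% of all genes). Dnajc28, a mitochondrial J protein, differed by -0.34 in BAT, 0.02 in heart, 0.28 in liver and -0.02 in muscle (adjusted p = 0.0148). It was at 7.81, 7.15, 8.15 and 9.1 TPM in Mut BAT, against 10.7, 11.6, 10.2 and 9.2 TPM in WT BAT, and at 7.18, 7.09, 6.81 and 6.62 TPM in Mut liver, against 5.46, 6.32, 4.99 and 5.37 TPM in WT liver. Neither tissue had an overlap, and the order was opposite in the 2. Hspa4l differed by -0.40 in BAT, 0.17 in heart, 0.51 in liver and 0.22 in muscle (adjusted p = 0.0292). Dnajc9 differed by 0.13 in BAT, -0.23 in heart, 0.39 in liver and 0.07 in muscle (adjusted p = 0.0377). The calls on Hspa4l and Dnajc9 were lost when single libraries were left out, with adjusted p of up to 0.0633 and 0.076. Bag2 followed at 0.0509 and Hspb2 at 0.0662.

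The third question was how far the heat-inducible genes vary between animals of 1 group. In BAT the spread of these genes was far above that of other genes, and it did not follow the genotype. The SD of log2(TPM + 1) within the groups had a median of 0.55 over the 11 heat-inducible genes, 0.17 over the 74 chaperone genes tested and 0.16 over all genes. In BAT 8 chaperone genes reached the 95th percentile of all genes, and all 8 are on the heat-inducible list: Hspa1b, Hspa1a, Dnajb1, Hsph1, Dnaja1, Hspa8, Hsp90aa1 and Hspb1. Dnajb4, which is not on it, came next, at the 94.6th percentile. The list includes Hspa8, the constitutive Hsp70. It was set with earlier results of these data known, so its counts here and below are a description. In heart and liver no heat-inducible gene tested reached it (medians 0.15 and 0.15, against 0.17 and 0.16 for all genes). Only 9 of the 11 were tested in heart and 10 in liver. Hspa1a in both tissues and Hspa1b in heart were under the filter of 1 TPM, so their spread there is not counted.

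Hspa1a, the classic inducible Hsp70, was at 13.6, 2.79, 3.75 and 25 TPM in Mut BAT and 2.01, 1.32, 10.9 and 16.6 TPM in WT BAT. Its copy Hspa1b was at 14.7, 2.79, 2.88 and 28.6 TPM in Mut BAT and 2.1, 0.842, 14.4 and 28.2 TPM in WT BAT, a 33.5-fold range within WT. Reads from these copies are hard to tell apart, and their sum gave a log2 difference of 0.51 (SE 0.93, adjusted p = 0.813 by limma), and the Mut and WT libraries overlapped. Both genes were low in the other tissues, with means of 0.733 to 3.07 TPM for Hspa1a outside liver, at most 0.459 TPM in liver, and 0.969 to 3.61 TPM for Hspa1b.

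Dnajb1, which loads Hsp70, was at 22.1, 14.7, 15 and 47.6 TPM in Mut BAT and 9.62, 8.18, 24.7 and 34.6 TPM in WT BAT. Hsph1, the inducible Hsp110, was at 41.4, 24.4, 15.5 and 34.4 TPM in Mut BAT and 19.4, 17.3, 41.7 and 66.3 TPM in WT BAT. Hsp90aa1 was at 167, 108, 102 and 176 TPM in Mut BAT and 95.8, 97.8, 169 and 230 TPM in WT BAT. In all 3 genes Mut 1, Mut 4, WT 3 and WT 4 were the highest libraries of the 8. Dnaja1 showed the same at 128, 81, 73.4 and 128 TPM in Mut BAT and 72.2, 55.8, 149 and 203 TPM in WT BAT, and so did Hspa8, the most abundant chaperone gene, at 834, 613, 513 and 771 TPM in Mut BAT and 469, 381, 937 and 1010 TPM in WT BAT.

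This set of 4 was picked after the values were seen, and it is given as a description. These libraries were the 4 highest for 9 of the 11 heat-inducible genes (81.8%), for 25 of the 74 chaperone genes tested (33.8%) and for 1187 of the 12150 genes (9.77%). The exceptions were Hspd1, at 345, 352, 351 and 360 TPM in Mut BAT and 331, 356, 422 and 411 TPM in WT BAT, and Hspe1, at 233 to 271 TPM in Mut BAT and 248 to 271 TPM in WT BAT. These mitochondrial genes, whose window holds the 3-unit repeat shown above, varied by at most 1.28-fold within a BAT group. In Mut heart the range was 1.37-fold for Hspd1 and 1.65-fold for Hspe1. Whether the repeat bears on the spread was not tested. Hspb1, with a pair of repeats in its stretch, was at 191, 140, 126 and 247 TPM in Mut BAT and 103, 141, 192 and 218 TPM in WT BAT.

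Atf3, an immediate early gene, ran along in BAT with 13.1, 7, 11.3 and 17.2 TPM in Mut and 2.92, 2.29, 12.5 and 17.5 TPM in WT. The summed immediate early list (7 genes) was 403, 291, 608 and 784 TPM in Mut BAT and 199, 230, 374 and 325 TPM in WT BAT, 7 of 7 with a higher mean in Mut, so it did not have the same library order. Leukocyte markers summed to 68.8, 43.7, 45.6 and 64.9 TPM in Mut BAT and 7.72, 12.1, 53.9 and 26.2 TPM in WT BAT, 4 of 5 with a higher mean in Mut and none at 0. The brown fat markers summed to 4257 to 4887 TPM in Mut BAT and 4200 to 5102 TPM in WT BAT. The part of other cells or of tissue handling in the spread of the chaperones was not tested.

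**Figure D5:**
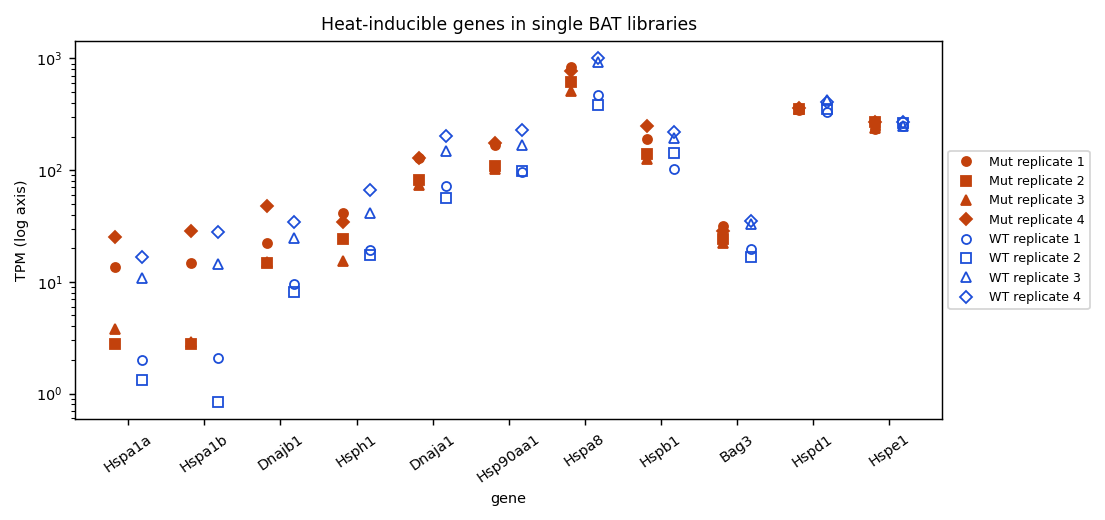
TPM (log axis) of the 11 heat-inducible chaperone genes in each BAT library, Mut filled and left, WT open and right, with 1 symbol per replicate number. Mut 1, Mut 4, WT 3 and WT 4 were the highest libraries for 9 of the 11, while Hspd1 and Hspe1 varied by at most 1.28-fold within a BAT group.

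In muscle 5 of 75 chaperone genes reached the 95th percentile of within-group spread, a share near the 5% that the percentile sets for all genes. They were Hspa1a and Hspa1b, which also led in BAT, and Hspb7, Hspb6 and Dnaja4. Hspb7 was at 295, 72.1, 73.6 and 152 TPM in Mut muscle, against 158, 210, 138 and 132 TPM in WT muscle. Hspb6 was at 699, 316, 354 and 494 TPM in Mut muscle, against 485, 603, 467 and 444 TPM in WT muscle, and Dnaja4, a J protein of muscle, at 55.1, 23.8, 28.9 and 40 TPM in Mut muscle, against 38.1, 42.9, 35.6 and 34.2 TPM in WT muscle. In each of these genes Mut 1 was the highest and Mut 4 the next Mut library, and Mut 2 and Mut 3 lay below all WT libraries. Cryab had the same order, at 1176, 337, 383 and 733 TPM in Mut muscle, against 533, 820, 591 and 477 TPM in WT muscle.

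Markers of slow fibres were also lowest in Mut 2 and Mut 3. The sum of Myh7, Tnnt1, Tnni1, Myl3 and Myl2 was 1559, 279, 267 and 899 TPM in Mut muscle, against 1200, 1492, 1654 and 1371 TPM in WT muscle, with 0 of 5 higher in Mut by mean and none at 0. Hspb8, which pairs with Bag3, ran the other way, at 199, 307, 320 and 249 TPM in Mut muscle, against 251, 212, 209 and 225 TPM in WT muscle. White fat markers, by contrast, summed to 26.1, 110, 93.1 and 35.1 TPM in Mut muscle, against 33.1, 42.6, 28.8 and 19.5 TPM in WT muscle (3 of 3 higher in Mut by mean, none at 0). The skeletal muscle markers summed to 59269, 94894, 89455 and 70652 TPM in Mut muscle, against 67257, 62031, 72966 and 80007 TPM in WT muscle (5 of 5 higher in Mut by mean). Both sums were highest in Mut 2 and Mut 3. The part of fibre type or of fat in these values was not tested. Hspb6 was also high in Mut BAT 1, at 40.3 TPM, against 24.6 to 27.3 TPM in the other Mut BAT libraries and 20.9 to 26.3 TPM in WT BAT. In the same library the slow fibre markers summed to 261 TPM, against 142 to 160 TPM in the other Mut BAT libraries and 146 to 164 TPM in WT BAT.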

How the data were processed

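The deposited table holds TPM per transcript for 32 libraries, made by the authors with Salmon, per the submitters' processing notes; neither its version nor the genome build is given in the sources used here. Of 147493 transcript identifiers, 136081 matched GENCODE M21 (GRCm38) with version numbers ignored, and TPM was summed per gene (51510 genes). Per the labels, total RNA was made into strand-specific libraries. TPM sums to a fixed total, so depth is unknown and no counting interval is given.

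Groups come from the library titles. Each tissue was fitted with limma 3.58.1 (R 4.3.3, mean-variance trend) on log2(TPM + 1), keeping genes whose mean reached 1 TPM, Benjamini-Hochberg adjusted over all genes. WT tissues were fitted together, as was the interaction. Fold changes on this scale understate changes of low genes. The fits were tested on simulated data. Shares of Dnajb6 transcripts were compared with exact permutation tests, which were not planned. Tables and figures used Python 3.11.15, pandas 2.3.3 and matplotlib 3.10.9.

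Alternatives were a pseudocount of 0.1, no filter, a filter at 5 TPM, median-ratio scaling, a sum without mitochondrial and the 10 most abundant genes, no trend, a block for replicate number, array weights, a single model of all libraries, the Mut libraries for tissue differences, Hspa1a and Hspa1b summed, and leaving out each library.

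The genes and lists were chosen with earlier results of these data known. Named genes are every called gene (or the 6 smallest p) per tissue, the most abundant of each class, up to 6 per tissue that were highest there, the 5 smallest interaction p, the heat-inducible genes, those with the largest spread, and Smim30. Others were chosen after their values were seen. Replicate numbers did not pair samples.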

Additional observations from a re-analysis of the deposited data

Results flagged for a closer look

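The genotype difference varied between tissues for Dnajc28 (adjusted p = 0.0148), Hspa4l (0.0292) and Dnajc9 (0.0377) in limma's interaction test. In 17 genes described by library, 130 groups of 4 were checked for a sample far from the other 3, and 7 held one, about what chance gives (1 in 20). These were Hspa1b in Mut muscle 1 (4.8 TPM), Dnajb1 in WT heart 4 (6.13 TPM), Dnaja1 in WT muscle 4 (26.7 TPM), Hsp90aa1 in Mut heart 3 (42 TPM), Hspb1 in Mut heart 2 (69.3 TPM), Hspa4l in Mut liver 1 (9.08 TPM) and Hspb6 in Mut BAT 1 (40.3 TPM). Without Mut liver 1 the liver difference of Hspa4l was 0.42 and no longer called (adjusted p = 0.0961). Its call was also lost without any other single liver library, with the largest adjusted p in limma without WT liver 3 (0.105).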

How the results depend on the processing

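Of 358 alternative values of the 15 counts, 333 were within 1.5 times the reported count. The exceptions were as follows. The 0 calls in BAT became 3 with array weights (2 higher, 1 lower), 2 in 1 fit over all libraries and 0 to 1 without 1 library. The 4 calls in liver became 0 with no filter, 0 with median-ratio scaling, 0 with the replicate block, 2 in the rescaled sum, 8 (7 higher, 1 lower) in 1 fit over all libraries, and 0 to 3 without 1 library. The 3 interaction calls became 1 with no filter, 7 with array weights and 1 to 5 without 1 library. The 3 genes highest in heart became 5 with median-ratio scaling, 11 in the rescaled sum and 5 with array weights. The 8 highest in liver became 2 in the rescaled sum, where Dnajc1 (-0.07), Dnajc25 (-0.11), Dnajb6 (-0.13) and Hspa13 (-0.12) changed sign. Causes were not tested. No share of all genes stands beside these alternative counts, so they are not read as results about the chaperones. Replicate numbers are shared between groups but not shown to pair samples: correlations of same-numbered deviations ran from -0.25 to 0.16, so the block is given here only, and in the liver it left Dnaja1 at an adjusted p of 0.0723. Of 1096 values of single genes, 1008 kept direction and side of the threshold, 65 lost a call, 19 gained one and 4 reversed. Depth is unknown, which limits what can be said of the 11 genes under 1 TPM.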
